A study of Rattus norvegicus with 8 samples.

Results

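The 8 genes Gata4, Gata6, Pdx1, Onecut2, Cdx1, Cdx2, Hnf4a and Hnf4g encode transcription factors that set or keep the regional identity of the intestinal epithelium. They were taken by symbol from the 52753 loci of the deposited gene table. Each symbol was found at 1 locus, and all 8 were among the 16941 loci that passed a filter on low counts. Their values come from stranded mRNA sequencing of small intestine of Sprague Dawley rats at postnatal day 21, taken over its whole length, freed of mesentery and flushed. There were 4 libraries labelled cystic fibrosis (CF), a disorder in which the CFTR anion channel is lost, and 4 labelled wild type (WT). The labels give no CF allele, sex, litter or batch and do not state the animal behind each library, so p-values measure the spread among libraries, which may be technical. Each library is called by the number from 0 to 3 that the table gives it within its group.

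The epithelium of the small intestine changes its gene programme along its length. In mice, GATA4 marks the duodenum and jejunum and keeps the genes of the ileum silent there, PDX1 marks the duodenum and the pancreas, and the caudal factors CDX1 and CDX2 set intestinal against gastric identity. The nuclear receptors HNF4A and HNF4G are active along the whole small intestine, where they drive the genes of fat handling and of the brush border. Because each library here holds RNA of the whole organ, the values are averages over all regions and over all cell types. Fewer cells of a type and less RNA per cell cannot be told apart in such samples.

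The libraries held 18621671 to 20890031 assigned fragments in CF and 15255364 to 20812425 in WT. CF library 0 was the lowest in its enterocyte genes. On a score that averages the log2 level of a list's members after the mean of each gene over all 8 libraries is removed, it lay at -0.84 for 18 proximal enterocyte genes, -0.66 for 15 ileal genes and -0.62 for 23 brush border genes. The ileal list also holds the hormone genes Pyy, Nts and Gcg. The other 7 libraries lay between -0.18 and 0.56, -0.17 and 0.40, and -0.17 and 0.43 on those 3 scores. Of the tested loci, 28 (0.165%) passed an adjusted p of 0.05 between CF and WT in edgeR's quasi-likelihood test, adjusted by the Benjamini-Hochberg method over all tested loci.

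None of the 8 genes passed that test, against 0.165% of all tested loci (0.136% higher and 0.0295% lower in CF). Cdx1 was the 1 member with an unadjusted p under 0.05 in edgeR, against 15.1% of all tested loci and 7.94% in its direction, higher in CF. On the CPM scale it was also the 1 member whose CF and WT libraries did not overlap, against 8.78% of all tested loci and 4.86% in its direction. In raw fragments, before any scaling, both Cdx1 and Hnf4a were separated so, and on the FPKM scale none of the 8 was. Raw fragments follow depth, which was lowest in WT libraries 0 and 3 (15255364 and 15321809 fragments, against at least 18621671 in CF). The share of all tested loci separated so was not measured on the raw or FPKM scale. DESeq2 called Cdx1 alone among the 8, against 3.10% of the loci it tested and 2.22% as higher in CF. Without the filter on low counts edgeR called Cdx1 alone as well, against 1.38% of loci and 0.988% as higher in CF. With limma-voom, and with limma on log2(FPKM + 1) or log2(FPKM + 0.1), none was called. The log2 fold change of CF over WT was above 0 for 5 members and below 0 for 3, where 49.2% of all tested loci were above 0. Its median over the members was 0.03, and that of all tested loci was 0.00. 

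**Figure D1:**
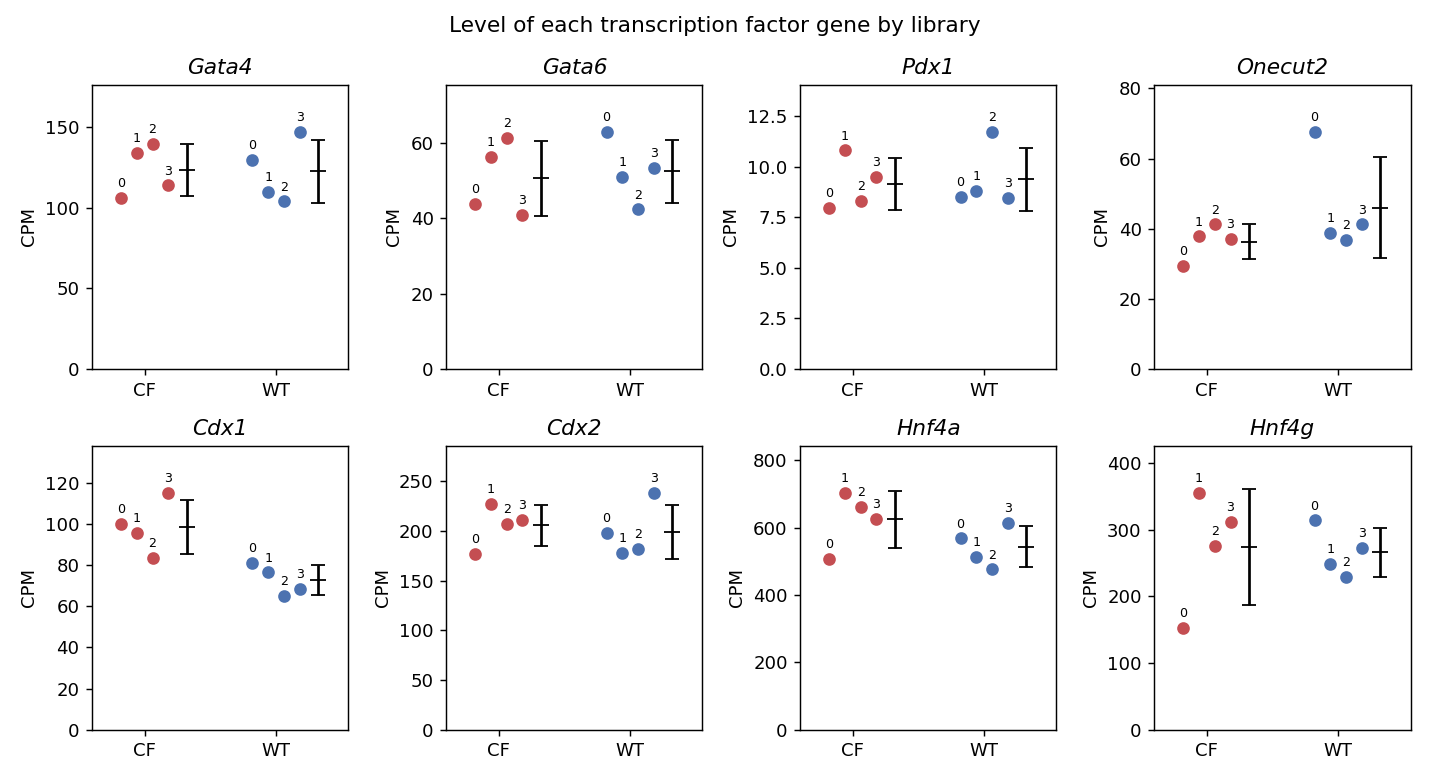
Level of each gene in CPM (fragment counts divided by the scaled size of the library) in the 4 CF and 4 WT libraries, each point 1 library marked with its number, and the bar beside them the mean ± SD of the group. The Cdx1 points of CF (83.6 to 115 CPM) lie above those of WT (65.1 to 81.0 CPM), and in the other 7 panels the groups overlap.

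Cdx1 encodes a caudal-type homeodomain factor of the intestinal crypt. It had 100, 95.6, 83.6 and 115 CPM in CF libraries 0 to 3, against 81.0, 76.4, 65.1 and 68.3 CPM in WT libraries 0 to 3. Every CF library was above every WT library, and the gap between the lowest CF library (83.6 CPM) and the highest WT library (81.0 CPM) was small beside the spread within either group. The mean was 98.6 ± 13.0 CPM in CF against 72.7 ± 7.31 CPM in WT (SD, n = 4 each). The log2 fold change of CF over WT was 0.44 (SE 0.12, 95% interval 0.18 to 0.71), a 1.36-fold higher level, with an adjusted p = 0.151 by edgeR's quasi-likelihood test. Its unadjusted p of 0.0039 in the same edgeR fit ranked 437 among the 16941 tested loci. A two-sided exact permutation test of its log2 CPM gave p = 0.0286, which is the smallest that 4 libraries against 4 allow.

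The call on Cdx1 was not the same in every fit. DESeq2, which applies its own filter, gave a log2 fold change of 0.45 and an adjusted p = 0.0344, and edgeR without the filter on low counts gave 0.48 and an adjusted p = 0.0382, in fits that called 3.10% and 1.38% of loci. In the 8 fits that each omit 1 library it ran from 0.36 to 0.51. Epithelium markers were also higher on average. Of 9 tested markers of epithelium 8 had higher means in CF, against 49.2% of all tested loci, and none passed edgeR's test. In edgeR 4 had an unadjusted p under 0.05, against 15.1% of all tested loci. DESeq2 called 1, where it called 3.10% of loci. The summed level of the markers was 6040 to 8540 CPM in CF against 5610 to 7060 CPM in WT. With libraries scaled by the summed counts of those markers, which shifts the median of all tested loci by -0.26, the log2 fold change of Cdx1 was 0.17 (adjusted p = 0.549 by edgeR's quasi-likelihood test). The largest part of those summed counts was Krt8, at 2960 ± 765 CPM in CF against 2330 ± 287 CPM in WT (SD, n = 4 each). The part of the epithelial share in the Cdx1 difference was not tested further.

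Cdx2 encodes the caudal-type factor that in mice is needed for intestinal identity from the embryo on. It had 177, 227, 207 and 211 CPM in CF libraries 0 to 3, against 198, 178, 182 and 238 CPM in WT libraries 0 to 3. CF library 0 was lowest and WT library 3 highest, and the groups overlapped over almost their whole range. The mean was 205 ± 21.0 CPM in CF against 199 ± 27.3 CPM in WT (SD, n = 4 each), with a log2 fold change of 0.05 (SE 0.13, 95% interval -0.23 to 0.33, adjusted p = 0.898 by edgeR). The interval spans 0.850-fold to 1.25-fold.

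The ratio of Cdx1 to Cdx2 fragments within a library, which no scaling between libraries can change, was 0.567, 0.421, 0.403 and 0.547 in CF libraries 0 to 3, against 0.410, 0.428, 0.357 and 0.287 in WT libraries 0 to 3. CF libraries 0 and 3 were above all WT libraries, while CF libraries 1 and 2 lay inside the WT range. The mean ratio was 0.484 ± 0.0843 in CF and 0.371 ± 0.0634 in WT (SD, n = 4 each). CF libraries 0 and 3 also had the highest Cdx1 levels, while their Cdx2 levels of 177 and 211 CPM were inside the WT range or just below it.

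The promoters of the 2 caudal genes are shown because Cdx1 was the 1 member whose groups did not overlap in CPM and Cdx2 is its paralog. RefSeq windows on build GRCr8, from 250 bases before to 50 bases after the annotated start, were found for 5 of the 8 members (Hnf4a, with 2 starts, Cdx2, Pdx1, Gata6 and Cdx1). Cdx1 is at chr18:56761250-56761549 on the minus strand and Cdx2 at chr12:12762654-12762953 on the plus strand, both written 5′ to 3′ in the direction of the gene. Capitals mark matches, on either strand, to 7 motifs: the caudal core TTTAT, the GATA motif AGATAA, the HNF1 motif GTTAAT, the HNF4 core CAAAGT, the TATA motif TATAAA, the ONECUT motif ATCGAT and the homeodomain core TAATTA.
Cdx1: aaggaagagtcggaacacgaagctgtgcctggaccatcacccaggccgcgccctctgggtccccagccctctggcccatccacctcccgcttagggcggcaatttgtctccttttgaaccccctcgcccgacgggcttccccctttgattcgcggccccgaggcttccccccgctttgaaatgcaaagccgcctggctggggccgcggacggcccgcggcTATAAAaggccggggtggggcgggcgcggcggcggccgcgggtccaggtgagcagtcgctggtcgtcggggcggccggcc
Cdx2: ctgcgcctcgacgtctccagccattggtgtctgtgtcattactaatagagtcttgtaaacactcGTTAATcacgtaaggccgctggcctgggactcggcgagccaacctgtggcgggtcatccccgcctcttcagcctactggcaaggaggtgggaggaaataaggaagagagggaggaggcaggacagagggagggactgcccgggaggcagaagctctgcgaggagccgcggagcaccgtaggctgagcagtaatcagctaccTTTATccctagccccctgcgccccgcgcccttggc
In the Cdx1 window the capitals are 1 TATA match 30 bases before the start, overlapped by 1 caudal core match on the other strand. The Cdx2 window held 1 caudal core match after the start and 1 HNF1 match 186 bases before it. Of all 33469 windows, 14.2% held the TATA motif, 42.5% the caudal core and 7.45% the HNF1 motif, so these matches are a description of the letters and not of binding. GC content was 70.7% in the Cdx1 window and 61.0% in the Cdx2 window, where the median of all windows was 51.7%.

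Hnf4a encodes a nuclear receptor that in mice acts with Hnf4g to drive enterocyte differentiation. It was the most abundant of the 8 genes, with 508, 703, 662 and 627 CPM in CF libraries 0 to 3, against 568, 514, 476 and 614 CPM in WT libraries 0 to 3. CF libraries 1, 2 and 3 were above all 4 WT libraries, and CF library 0 lay between WT libraries 1 and 2. The mean was 625 ± 83.9 CPM in CF against 543 ± 60.5 CPM in WT (SD, n = 4 each), with a log2 fold change of 0.20 (SE 0.14, 95% interval -0.11 to 0.51, adjusted p = 0.524 by edgeR). Without CF library 0 the log2 fold change was 0.29 (adjusted p = 0.309 by edgeR). With libraries scaled by epithelium markers the log2 fold change of Hnf4a was -0.07 (adjusted p = 0.780 by edgeR). That scaling shifts the median of all tested loci by -0.26.

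Its 2 annotated starts are shown because the count of the locus adds up transcripts from both and cannot tell which start was used. The windows are at chr3:172605970-172606269 and chr3:172641586-172641885 on build GRCr8, plus strand, with capitals for the same 7 motifs.
Hnf4a upstream start: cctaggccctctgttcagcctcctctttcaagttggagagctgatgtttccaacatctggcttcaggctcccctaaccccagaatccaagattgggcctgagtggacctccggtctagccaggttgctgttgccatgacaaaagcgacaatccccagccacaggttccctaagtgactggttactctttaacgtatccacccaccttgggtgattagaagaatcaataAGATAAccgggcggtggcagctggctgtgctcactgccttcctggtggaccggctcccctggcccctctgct
Hnf4a downstream start: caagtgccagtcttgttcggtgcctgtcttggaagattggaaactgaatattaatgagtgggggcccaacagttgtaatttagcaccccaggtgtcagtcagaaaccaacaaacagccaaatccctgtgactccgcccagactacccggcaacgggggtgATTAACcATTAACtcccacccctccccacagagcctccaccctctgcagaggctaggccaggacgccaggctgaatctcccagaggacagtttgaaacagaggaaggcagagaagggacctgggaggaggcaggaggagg
The upstream window held 1 GATA match 22 bases before the start, a motif found in 11.6% of all windows. The downstream window held 2 HNF1 matches, at 90 and 83 bases before the start, and no GATA match.

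Hnf4g encodes the close paralog of Hnf4a. It had 153, 355, 276 and 312 CPM in CF libraries 0 to 3, against 314, 249, 229 and 273 CPM in WT libraries 0 to 3. CF library 0 was the lowest of all 8 and CF library 1 the highest, so the CF group enclosed the whole WT group. The mean was 274 ± 86.9 CPM in CF against 266 ± 36.6 CPM in WT (SD, n = 4 each), with a log2 fold change of 0.04 (SE 0.23, 95% interval -0.46 to 0.55, adjusted p = 0.947 by edgeR). Without CF library 0, whose enterocyte scores were also the lowest, the log2 fold change was 0.24 (adjusted p = 0.427 by edgeR). The part of the lower enterocyte genes in that Hnf4g level was not tested.

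The ratio of Hnf4g to Hnf4a fragments was 0.302, 0.506, 0.417 and 0.498 in CF libraries 0 to 3, against 0.552, 0.484, 0.480 and 0.445 in WT libraries 0 to 3. CF library 0 had the lowest ratio and WT library 0 the highest. In CF library 0 Hnf4a lay at -0.19 log2 units from its mean over all libraries, while Hnf4g lay at -0.78.

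**Figure D2:**
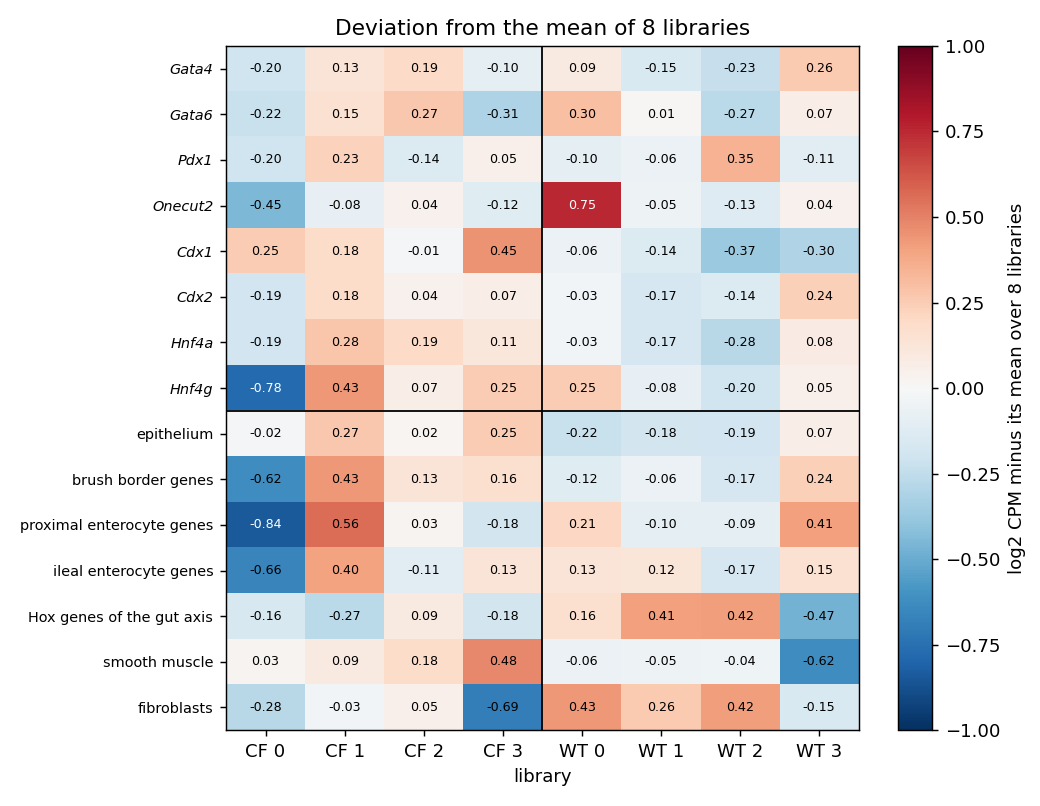
Deviation of each library (columns, CF left of WT) from the mean of all 8 libraries in log2 CPM, for the 8 genes above the line and for the mean score of 7 gene lists below it. CF library 0 is low for Hnf4g (-0.78) and for the proximal (-0.84), ileal (-0.66) and brush border (-0.62) lists, and WT library 0 is high for Onecut2 (0.75).

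Gata4 encodes the zinc finger factor of the proximal small intestine. It had 106, 134, 140 and 114 CPM in CF libraries 0 to 3, against 130, 110, 104 and 147 CPM in WT libraries 0 to 3. WT library 2 was lowest and WT library 3 highest, so the WT group enclosed the whole CF group. The mean was 123 ± 15.8 CPM in CF against 123 ± 19.4 CPM in WT (SD, n = 4 each). The log2 fold change of 0.01 (SE 0.14, adjusted p = 0.990 by edgeR) had a 95% interval from -0.30 to 0.31, or 0.814-fold to 1.24-fold.

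Gata6, the GATA factor that in mice is present along the whole intestine and in its crypts, had 43.8, 56.4, 61.5 and 40.9 CPM in CF libraries 0 to 3, against 62.9, 51.1, 42.4 and 53.5 CPM in WT libraries 0 to 3. The groups overlapped, with CF library 3 lowest and WT library 0 highest. The mean was 50.7 ± 9.86 CPM in CF against 52.5 ± 8.43 CPM in WT (SD, n = 4 each), with a log2 fold change of -0.05 (SE 0.16, 95% interval -0.40 to 0.30, adjusted p = 0.914 by edgeR). Gata6 is also active in mesenchymal cells. Of 4 tested fibroblast markers all had lower means in CF, with a summed level of 718 to 1280 CPM in CF against 1050 to 1800 CPM in WT. Of 7 tested smooth muscle markers all had higher means in CF, with a summed level of 5050 to 6720 CPM in CF against 3090 to 4600 CPM in WT. The part of either list in the Gata6 level was not tested. The ratio of Gata6 to Gata4 fragments was 0.359 to 0.441 in CF libraries and 0.365 to 0.482 in WT libraries.

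Pdx1 encodes the homeodomain factor of the duodenum and pancreas. It had the fewest fragments of the 8, from 156 to 191 per library in CF and from 124 to 251 in WT. It had 7.96, 10.8, 8.30 and 9.48 CPM in CF libraries 0 to 3, against 8.52, 8.78, 11.7 and 8.46 CPM in WT libraries 0 to 3. WT library 2 was the highest, and the other WT libraries lay close together and inside the CF range. The mean was 9.13 ± 1.28 CPM in CF against 9.36 ± 1.56 CPM in WT (SD, n = 4 each), with a log2 fold change of -0.04 (SE 0.16, 95% interval -0.40 to 0.32, adjusted p = 0.932 by edgeR). Without WT library 2 it was 0.08.

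Markers of the pancreas, which also makes Pdx1, were high in 2 libraries. The summed level of 15 markers of acinar and islet cells was 158 CPM in CF library 2 against 17.5 to 18.7 CPM in the other CF libraries, and 61.9 CPM in WT library 1 against 15.4 to 19.1 CPM in the other WT libraries. Without Cela1, which lay at 17.0 ± 0.836 CPM in CF against 16.6 ± 1.94 CPM in WT (SD, n = 4 each), the sum was 140 CPM in CF library 2 and 43.9 CPM in WT library 1, and 0.482 to 3.03 CPM in the other 6 libraries. Pdx1 was at 8.30 CPM in that CF library and 8.78 CPM in that WT library, inside the range of the other 6, and the islet gene Ins1 averaged 0.0133 ± 0.0266 CPM in CF against 0.0152 ± 0.0304 CPM in WT (SD, n = 4 each). Ins2, the other insulin gene, was at 0.213 CPM in that CF library and at 0 in the other 7. Ptf1a, a transcription factor of acinar cells, was at 0 in all 8 libraries.

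Onecut2 encodes a cut-homeodomain factor whose mouse counterpart is active in the duodenal epithelium and in endocrine cells. It had 29.3, 37.8, 41.2 and 37.0 CPM in CF libraries 0 to 3, against 67.5, 38.7, 36.7 and 41.2 CPM in WT libraries 0 to 3. WT library 0 stood far above all other libraries, and the remaining 3 WT libraries lay inside the CF range, the highest of them level with CF library 2. The mean was 36.3 ± 5.05 CPM in CF against 46.0 ± 14.4 CPM in WT (SD, n = 4 each), with a log2 fold change of -0.34 (SE 0.20, 95% interval -0.78 to 0.09, adjusted p = 0.445 by edgeR). Without WT library 0 the log2 fold change was -0.10 (adjusted p = 0.798 by edgeR), so its size rested on that library. The Onecut2 span in the table also holds a locus named RGD1562699 with 220 fragments over all libraries, so a few fragments could have been assigned to either.

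**Figure D3:**
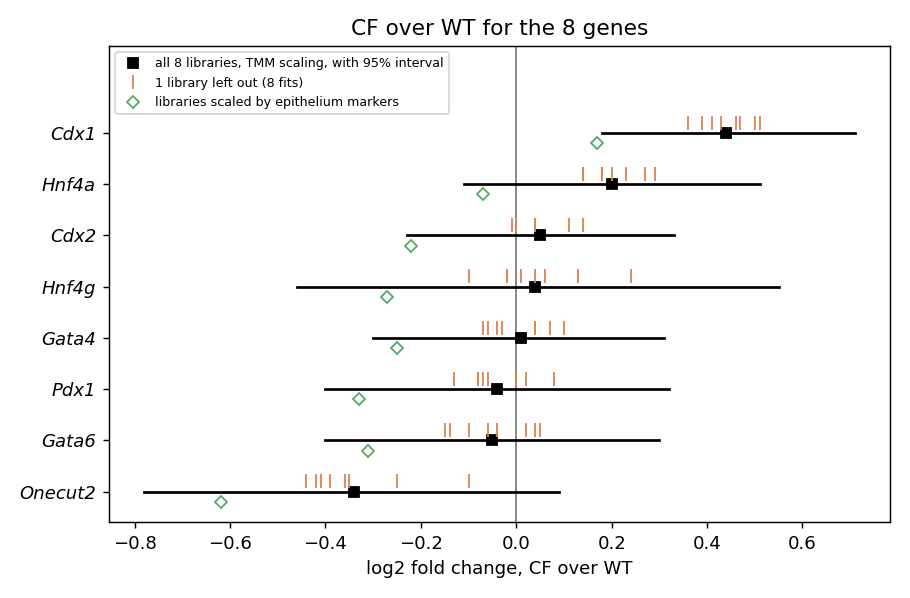
Log2 fold change of CF over WT for the 8 genes, with its 95% interval from edgeR's quasi-likelihood fit (squares and lines), the 8 fits that leave out 1 library (ticks) and the fit with libraries scaled by epithelium markers (diamonds). The interval of Cdx1 (0.18 to 0.71) is the 1 that does not hold 0, and the diamonds lie to the left of the squares for all 8 genes. Scaling by epithelium markers shifts the median of all tested loci by -0.26.

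Levels can be compared between genes only per transcript length, for which the authors' FPKM values (fragments per kilobase of transcript, scaled by library) were used. Over all 8 libraries the order was Hnf4a (97.1 ± 14.7 FPKM), Cdx2 (84.6 ± 14.2), Hnf4g (77.9 ± 23.4), Cdx1 (40.7 ± 9.61), Gata4 (38.9 ± 7.68), Gata6 (27.6 ± 6.55), Pdx1 (5.78 ± 1.04) and Onecut2 (5.67 ± 1.86), each the mean FPKM ± SD of 8 libraries. Hnf4a was above or level with Cdx2 (above in 7 of 8 libraries, by a median ratio of 1.14), and Cdx2 was above Hnf4g in 5 of 8. Hnf4g was above Cdx1 in 7 of 8 libraries, the exception being CF library 0 with 39.4 FPKM for Hnf4g and 61.0 FPKM for Cdx1. The neighbours Cdx1 and Gata4 (Cdx1 higher in 5 of 8 libraries) and Pdx1 and Onecut2 (Pdx1 higher in 4 of 8) did not differ beyond their spread. Gata4 was above Gata6 in all 8 libraries by a ratio from 1.07 to 1.93, and Gata6 above Pdx1 in all 8 by a ratio from 2.66 to 6.10.

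**Figure D4:**
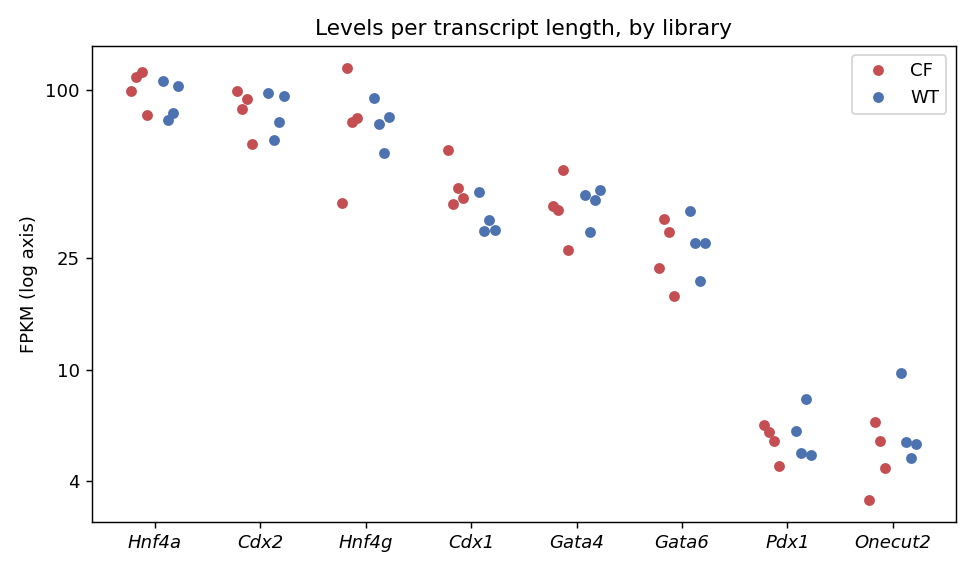
FPKM of the 8 genes in each CF and WT library, on a log axis, ordered by their mean over all libraries. Hnf4a, Cdx2 and Hnf4g reach from 39.4 FPKM, the Hnf4g value of CF library 0, to 120 FPKM, the Hnf4g value of CF library 1, and Pdx1 and Onecut2 stay at or below 9.71 FPKM in every library.

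The FPKM values were not on one scale with the counts. CF library 3 had 2309 fragments and 41.2 FPKM for Cdx1, while CF library 0 had 2077 fragments and 61.0 FPKM. Over the 11665 tested loci with at least 50 fragments in every library the median FPKM for a given CPM was 0.804 in CF library 3, against 1.12 in CF library 0, relative to the mean of all libraries, and for Cdx1 that ratio differed up to 1.70-fold between libraries. On the FPKM scale Cdx1 was at 46.4 ± 10.0 FPKM in CF and 35.0 ± 5.44 FPKM in WT (SD, n = 4 each), and its groups overlapped, with 38.9 FPKM in CF library 1 against 43.0 FPKM in WT library 0.

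Counting error was smaller than the spread of these genes. The mean number of fragments per library ran from 174 for Pdx1 to 10800 for Hnf4a, for which counting alone gives a coefficient of variation of 7.58% and 0.960%. The observed values within groups were 14.0% in CF and 16.6% in WT for Pdx1, and 13.4% in CF and 11.1% in WT for Hnf4a. Beside loci of like level, within 0.5 log2 units, the pooled within-group SD was larger for Hnf4g (0.40 against a median of 0.20, above 88.8% of 529 loci) and Onecut2 (0.32 against 0.17, above 87.2% of 2577 loci). For Cdx1 it was 0.17 against a median of 0.17.

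After the mean of each group was removed, some of the 8 genes varied together over the 8 libraries. Gata4, Cdx2 and Hnf4a did so most closely, with a Pearson r of 0.91 between Cdx2 and Hnf4a, 0.90 between Gata4 and Hnf4a and 0.85 between Gata4 and Cdx2. Hnf4a and Hnf4g had an r of 0.86, and Gata4 and Gata6 one of 0.79. Cdx1 had r from -0.28 to 0.26 with the other 7, and Pdx1 from -0.34 to 0.32. In all, 12 of the 28 pairs had an r above 0.5. These values describe 8 libraries that share their scaling and the mixture of cell types in each piece of tissue.

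By the same measure the genes most like each member were listed out of 10090 named loci of at least 5 CPM. For Cdx1 they included Akap13 (r of 0.965) and Acacb (0.959). For Cdx2 they included Fbxo4 (0.990) and Ap3d1 (0.984), and for Hnf4a they were Sec16b (0.991), Por (0.990), which encodes the electron donor of microsomal cytochromes P450, and Dnmbp (0.989). Hnf4g was closest to Susd2 (0.995), Lmna (0.991) and Igsf3 (0.984). Gata4 was closest to Gramd1c (0.983), Slc22a3 (0.981) and Gab1 (0.979), and Gata6 to Slco2b1 (0.978), RT1-CE10 (0.973) and Gnai1 (0.965). Onecut2 was closest to Ubr2 (0.975), Foxj3 (0.973) and Tcf12 (0.972), and Pdx1 to Dtx2 (0.958), Cdk16 (0.923) and Cyth3 (0.915). Each is the best of a long list over 8 libraries, and none of the genes named here passed edgeR's test between CF and WT.

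On the chromosomes of build Rnor_6.0, Cdx2 (chromosome 12, 9461853 to 9472828) and Pdx1 (chromosome 12, 9494416 to 9501260) lie 21.6 kb apart in the ParaHox cluster. Gsx1, the third gene of that cluster and a factor of the nervous system, had no fragment in any library. Cdx1 (chromosome 18, 56337450 to 56355490) lies 9.13 kb from Pdgfrb, the receptor gene of pericytes and fibroblasts, and 59.0 kb from Csf1r, the receptor gene of macrophages. Those neighbours had log2 fold changes of -0.39 and -0.56 (adjusted p = 0.227 and 0.133 by edgeR). The nearest neighbour, Slc6a7 at 5.46 kb, had one of 0.18, and Hmgxb3, in the span of Csf1r, one of 0.09 (adjusted p = 0.827 and 0.694 by edgeR). The other spans are chromosome 15, 46386695 to 46458615 for Gata4, chromosome 18, 2364751 to 2447284 for Gata6, chromosome 18, 59771486 to 59888984 for Onecut2, chromosome 3, 159902354 to 159965797 for Hnf4a and chromosome 2, 100224875 to 100372380 for Hnf4g. A span covers all transcripts bundled there, and that of Gata4 also holds an unnamed locus with 622 fragments over all libraries.

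Among 112 tested genes in 9 lists of related factors and of genes that mark regions of the gut, edgeR's quasi-likelihood test called none. At an unadjusted p under 0.05 it held 17 (15.2%), where all tested loci gave 15.1%, and DESeq2 called 5, namely Foxa3, Thra, Cybrd1, Slc11a2 and Sct, where it called 3.10% of all loci it tested, and limma-voom none. Without the low-count filter edgeR called 6, namely Foxa1, Foxa3, Slc11a2, Sct, Ezr and Krt20, where it called 1.38% of all loci. These genes are described in turn by what they do.

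Of 11 paralogs and partners of the 8 factors, 7 were tested and none was called by edgeR, DESeq2 or limma (1 had an unadjusted p under 0.05 in edgeR). Gata5, the remaining GATA factor of the gut epithelium, averaged 84.2 ± 17.6 CPM in CF against 72.7 ± 9.20 CPM in WT (SD, n = 4 each, log2 fold change 0.21, adjusted p = 0.562 by edgeR). Nr2f6, an orphan nuclear receptor, had the smallest unadjusted p of the list in edgeR (0.0213) at 93.4 ± 12.3 CPM in CF against 75.8 ± 3.73 CPM in WT. Zfpm1, a cofactor of GATA proteins, averaged 82.4 ± 20.6 CPM in CF against 68.3 ± 15.5 CPM in WT. Onecut1 was at 0 in all libraries, Onecut3 averaged 0 CPM in CF against 0.0520 CPM in WT, and Cdx4 0 CPM in CF against 0.0448 CPM in WT.

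All 23 other enterocyte transcription factors were tested. Their log2 fold changes were above 0 for 16 and below 0 for 7, with a median of 0.13, against 0.00 for all tested loci. EdgeR called none, 5 had an unadjusted p under 0.05 in edgeR, and DESeq2 called 2 (3.10% of all loci it tested). Foxa3, a forkhead factor of endoderm, had 43.4, 30.0, 31.8 and 39.4 CPM in CF libraries 0 to 3, against 19.2, 26.5, 22.0 and 25.5 CPM in WT libraries 0 to 3. All CF libraries were above all WT libraries, and the log2 fold change of 0.63 had an SE of 0.15 (adjusted p = 0.107 by edgeR, and 0.0118 by DESeq2). Thra, the thyroid hormone receptor that in rodents acts in the weaning transition of the gut, averaged 65.0 ± 20.0 CPM in CF against 112 ± 22.1 CPM in WT (log2 fold change -0.79, adjusted p = 0.169 by edgeR, and 0.0302 by DESeq2). Creb3l3 and Elf3, the 2 most abundant, were not called: Creb3l3 averaged 570 ± 172 CPM in CF against 448 ± 140 CPM in WT, and Elf3 363 ± 55.4 CPM in CF against 375 ± 82.5 CPM in WT (SD, n = 4 each).

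The genes by which the proximal factors are usually read were also not called by edgeR (2 had an unadjusted p under 0.05, and DESeq2 called 2, where it called 3.10% of all loci). Of 18 tested proximal enterocyte genes 13 had lower and 5 higher means in CF, with a median log2 fold change of -0.26, against 0.00 for all tested loci. Apoa4, an apolipoprotein of chylomicrons, averaged 3000 ± 1640 CPM in CF against 3650 ± 1560 CPM in WT (SD, n = 4 each). The list was lowest in CF library 0, with a summed level of 7950 CPM against 11100 to 18100 CPM in the other CF libraries and 10700 to 19100 CPM in the WT libraries. Both iron genes that DESeq2 called are duodenal, and their differences had opposite signs. Slc11a2, the apical iron transporter, averaged 117 ± 18.0 CPM in CF against 72.9 ± 4.51 CPM in WT (log2 fold change 0.69, adjusted p = 0.0589 by edgeR, and 0.000146 by DESeq2), and Cybrd1, the duodenal ferric reductase, averaged 42.1 ± 14.7 CPM in CF against 79.9 ± 20.4 CPM in WT (log2 fold change -0.93, adjusted p = 0.176 by edgeR, and 0.0217 by DESeq2). Without the low-count filter edgeR called Slc11a2 (adjusted p = 0.000168), and with libraries scaled by epithelium markers it called Cybrd1 (log2 fold change -1.21, adjusted p = 0.0466).

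Of 6 tested duodenal endocrine and Brunner gland genes 3 had higher and 3 lower means in CF, with none called by edgeR, 1 at an unadjusted p under 0.05 and 1 called by DESeq2 (3.10% of all loci). Sct, the hormone secretin of duodenal S cells, had 18.9, 14.2, 16.5 and 20.9 CPM in CF libraries 0 to 3, against 7.91, 11.5, 10.6 and 12.3 CPM in WT libraries 0 to 3. The groups did not overlap, and secretin RNA had a log2 fold change of 0.74 (standard error 0.17, adjusted p = 0.101 by edgeR, and 0.00867 by DESeq2). Gip, the incretin hormone of duodenal K cells, averaged 41.0 ± 4.65 CPM in CF against 49.1 ± 13.1 CPM in WT, and Cck averaged 18.2 ± 4.59 CPM in CF against 18.9 ± 1.61 CPM in WT (SD, n = 4 each).

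Of 15 tested ileal genes 9 had higher and 6 lower means in CF, with a median of 0.06, and none was called by edgeR, DESeq2 or limma (2 had an unadjusted p under 0.05 in edgeR). Fabp6, the ileal bile acid-binding protein, had 71.7, 1114, 888.4 and 165.7 CPM in CF libraries 0 to 3, against 525.2, 1072, 847.7 and 956.6 CPM in WT libraries 0 to 3. CF libraries 0 and 3 were below every other library. Slc10a2, the ileal bile acid transporter, had 38.5, 87.3, 71.1 and 118 CPM in CF libraries 0 to 3, against 43.1, 81.5, 69.1 and 46.0 CPM in WT libraries 0 to 3, so in CF library 3 it was high where Fabp6 was low. Slc51a, the basolateral bile acid transporter subunit, averaged 360 ± 126 CPM in CF against 377 ± 35.1 CPM in WT, and the peptide hormone gene Pyy had the smallest unadjusted p of the list in edgeR (0.0310) at 10.6 ± 2.76 CPM in CF against 6.31 ± 2.64 CPM in WT.

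Brush border genes and other genes that CDX2 and HNF4 factors drive in mice numbered 23 tested, of which 16 had a higher and 7 a lower mean in CF, with a median of 0.10, and none was called by edgeR, DESeq2 or limma (4 had an unadjusted p under 0.05 in edgeR). Cdh17, the liver-intestine cadherin that is a target of CDX2 in mice, averaged 2110 ± 337 CPM in CF against 1600 ± 170 CPM in WT (log2 fold change 0.40, adjusted p = 0.287 by edgeR). Anpep, an aminopeptidase of the brush border, averaged 3090 ± 1280 CPM in CF against 3240 ± 760 CPM in WT, and Si, sucrase-isomaltase, 2060 ± 826 CPM in CF against 2610 ± 472 CPM in WT (SD, n = 4 each). Lgals4 averaged 2270 ± 505 CPM in CF against 1640 ± 198 CPM in WT, and Krt20, which had the smallest unadjusted p of the list in edgeR (0.0130), 1660 ± 388 CPM in CF against 1130 ± 131 CPM in WT (SD, n = 4 each). Without the low-count filter edgeR called Krt20 (log2 fold change 0.59, adjusted p = 0.0164) and the brush border linker gene Ezr (0.53, adjusted p = 0.0330).

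Of 23 Hox genes, which mark the mesenchyme along the gut axis, 14 were tested, and 13 of them had lower means in CF (median -0.24), with none called by edgeR, DESeq2 or limma (1 had an unadjusted p under 0.05 in edgeR). Hoxb5, the most abundant, averaged 11.2 ± 2.21 CPM in CF against 15.1 ± 5.07 CPM in WT, Hoxc8 10.1 ± 2.68 CPM in CF against 10.7 ± 2.16 CPM in WT, and Hoxa2 4.09 ± 1.16 CPM in CF against 7.15 ± 2.19 CPM in WT (SD, n = 4 each). The summed level was 60.0 to 80.4 CPM in CF and 52.4 to 99.5 CPM in WT, with WT library 3 lowest. Markers of fibroblasts also had lower means in CF, while the summed level of 7 smooth muscle markers was 5050 to 6720 CPM in CF against 3090 to 4600 CPM in WT. The part of the mixture of mesenchymal cells in the Hox values was not tested. Hoxa7, Hoxa9 and Hoxa10 were at 0 in all libraries. Whether these loci hold all transcripts of the genes was not tested. Markers of further cell types were summed too. Those of endothelium lay at 112 to 182 CPM in CF against 150 to 194 CPM in WT, of enteric neurons and glia at 48.2 to 60.5 CPM in CF against 41.6 to 68.2 CPM in WT, of leukocytes at 829 to 875 CPM in CF against 805 to 1450 CPM in WT, and of red cells at 90.3 to 127 CPM in CF against 155 to 352 CPM in WT. The largest part of the leukocyte sum was the lysozyme gene Lyz2, at 718 ± 23.5 CPM in CF against 1060 ± 267 CPM in WT (SD, n = 4 each). EdgeR called 1 of the markers of these cell types as lower in CF, the globin gene Hba-a2 of red cells. Of all tested loci it called 0.0295% as lower in CF. The reads of Hba-a2 may be split with the near-identical copy Hba-a1. DESeq2 called 3 of 5 tested red cell markers, 2 of 6 endothelium markers, 1 of 8 leukocyte markers, none of 8 markers of neurons and glia and 2 of 7 smooth muscle markers, where it called 3.10% of all loci. At an unadjusted p under 0.05 edgeR held 4 of the red cell, 5 of the endothelium, 2 of the leukocyte, 1 of the neuron and glia and 2 of the smooth muscle markers. Of all tested loci it held 15.1%.

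Genes of the stomach list were low, while the colon list held both low and more abundant genes. The 11 stomach genes summed to 3.04 to 4.01 CPM in CF and 3.62 to 4.70 CPM in WT, with the gastric mucin gene Muc5ac and the proton pump gene Atp4b at 0 in all libraries. Gkn3, a gastrokine, averaged 0.966 ± 0.685 CPM in CF against 1.60 ± 0.354 CPM in WT, and Atp4a, the other proton pump subunit, 1.70 ± 0.419 CPM in CF against 1.32 ± 0.274 CPM in WT. Of the 8 colon genes 4 were tested, with 1 higher and 3 lower means in CF, none called by edgeR or DESeq2 and 1 at an unadjusted p under 0.05 in edgeR, and Hoxb13 and Hoxd13 were at 0 in all libraries. Car1 averaged 0.215 ± 0.359 CPM in CF against 0.0125 ± 0.0251 CPM in WT (SD, n = 4 each). Slc26a3, an anion exchanger that the small intestine expresses too, averaged 162 ± 64.7 CPM in CF against 182 ± 32.1 CPM in WT, and Car4 98.9 ± 65.8 CPM in CF against 25.7 ± 16.0 CPM in WT (log2 fold change 1.95, SE 0.74, adjusted p = 0.287 by edgeR). Mettl7b averaged 37.9 ± 12.4 CPM in CF against 46.2 ± 14.6 CPM in WT, and Aqp8 15.9 ± 8.95 CPM in CF against 27.5 ± 11.8 CPM in WT.

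The balance between factors was also read within each library. The ratio of Cdx2 to Gata4 fragments, a caudal against a proximal factor, was 1.66, 1.70, 1.49 and 1.84 in CF libraries 0 to 3, against 1.52, 1.61, 1.75 and 1.62 in WT libraries 0 to 3. The groups overlapped, with means of 1.67 ± 0.147 in CF and 1.63 ± 0.0963 in WT (SD, n = 4 each). The ratio of Cdx1 to Gata4 was 0.943, 0.715, 0.599 and 1.01 in CF libraries 0 to 3, against 0.621, 0.692, 0.625 and 0.466 in WT libraries 0 to 3, so CF libraries 0, 1 and 3 were above all WT libraries and CF library 2 was not.

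**Figure D5:**
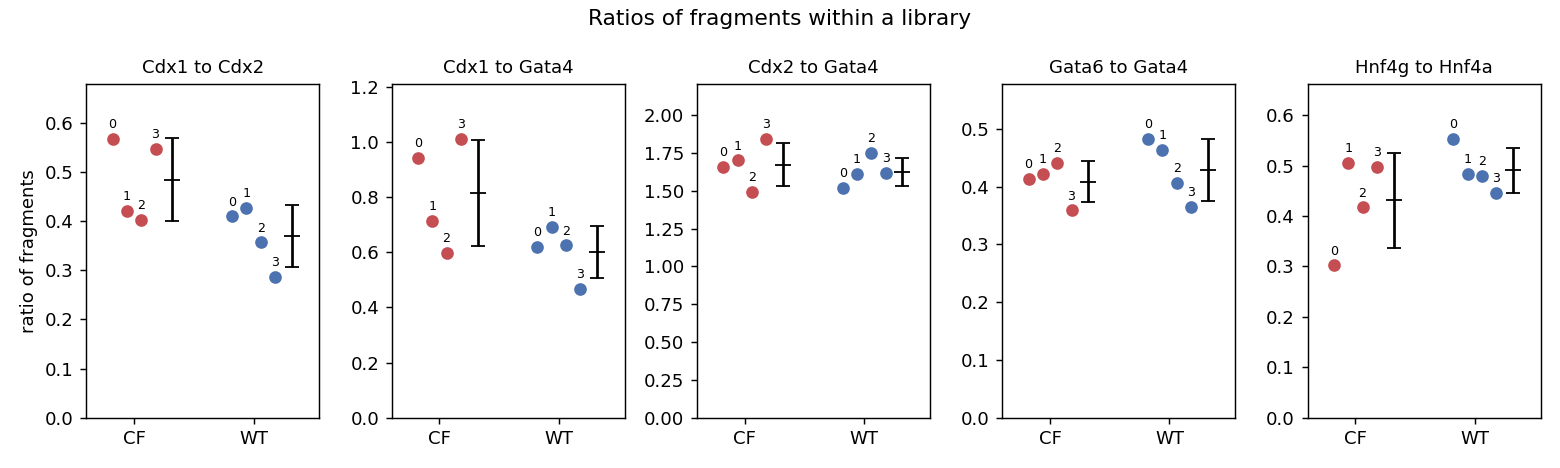
Ratios of raw fragments between pairs of the 8 genes within each library, CF left of WT, each point 1 library marked with its number, and the bar beside them the mean ± SD of the group. The ratio of Cdx1 to Cdx2 is highest in CF libraries 0 (0.567) and 3 (0.547), and that of Hnf4g to Hnf4a is lowest in CF library 0 (0.302).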

How the data were processed

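Stranded mRNA of rat small intestine was sequenced on a HiSeq2500, per the labels' protocols. The submitters' processing notes name build Rnor_6.0 and the programs Cuffdiff, StringTie, STAR 2.3.1z, cutadapt and bcl2fastq, with no order or settings. The estimated counts are raw fragments per locus and library, deposited by the authors before scaling, and 5.99% of values were fractional and rounded here. The FPKM values, named so per the file headers, were deposited by the authors, are scaled by library and length, and serve here for levels between genes and for 2 alternatives on log2(FPKM + 1) and log2(FPKM + 0.1) scales. Another 2 columns with values per library were left unused. Library numbers 0 to 3 name libraries within a group, and their tie to sample titles is unknown and unused.

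Loci without a gene name held 1.29% of fragments and stayed in the fit. Loci were filtered by edgeR's filterByExpr (minimum count 10, total 15), scaled by TMM and compared by its quasi-likelihood test in robust form, with p-values adjusted by the Benjamini-Hochberg method (threshold 0.05). Intervals are 95% intervals on the moderated degrees of freedom. On simulated counts of the CF and WT libraries at 16611 loci the test recovered 22.2% of loci changed 1.5-fold and 76.9% of those changed 2-fold. Each simulated locus had the spread typical of its level, which Hnf4g and Onecut2 exceeded, so these shares do not hold for loci of larger spread. Fits used DESeq2 1.42.0, limma 3.58.1 and edgeR 4.0.16 under R 4.3.3. Summaries and figures used matplotlib 3.10.9, scipy 1.17.1 and pandas 2.3.3 under Python 3.11.15. Members and lists were chosen with earlier results of these data known. The 17 lists held 219 entries, of which 205 were found (2 by a RefSeq synonym, the rest by symbol) and 162 tested. Named genes were the 8 members, the 3 loci most correlated with each, and of each list the called members or else the 2 most abundant and the 1 with the smallest p. A few other genes were named after their values were seen. Not every gene under this rule is reported here. Marker lists of endothelium, enteric neurons and glia, leukocytes and red cells were also measured. Alternatives were other scalings and tools, no low-count filter, the FPKM scales, unrounded fragments, the replicate block and leaving out each library. Depth was 15255364 to 20890031 fragments per library.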

Additional observations from a re-analysis of the deposited data

Results flagged for a closer look

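In groups of 4 libraries, 1 library lay far from the other 3 in 8 of 86 groups of values checked, where chance flags about 5% of groups. Pdx1 was at 11.7 CPM in WT library 2, against 8.46 to 8.78 CPM in the other WT libraries. Onecut2 was at 67.5 CPM and 9.71 FPKM in WT library 0, against 36.7 to 41.2 CPM and 4.84 to 5.51 FPKM in the other WT libraries. The summed level of pancreatic markers was 158 CPM in CF library 2 and 61.9 CPM in WT library 1. The summed level of smooth muscle markers was 6720 CPM in CF library 3, against 5050 to 5170 CPM in the other CF libraries, and 3090 CPM in WT library 3, against 4440 to 4600 CPM in the other WT libraries. The summed level of stomach genes was 4.70 CPM in WT library 2, against 3.62 to 3.66 CPM in the other WT libraries. The summed levels of proximal enterocyte, ileal and brush border genes were lowest in CF library 0 and were not flagged.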

How the results depend on the processing

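In 18 alternatives each, Onecut2 kept its sign and stayed uncalled in all. Cdx1 kept its sign in all 18 and passed the threshold with DESeq2 (0.45) and with no low-count filter (0.48). Scaling by epithelium markers turned the sign of Cdx2 (-0.22), Gata4 (-0.25), Hnf4a (-0.07) and Hnf4g (-0.27). That scaling shifted the median of all tested loci by -0.26. Gata4 also turned with upper quartile scaling (-0.03), log2(FPKM + 1) (-0.05) and log2(FPKM + 0.1) (-0.06), and Hnf4g with limma-voom (-0.01) and on both FPKM scales (-0.06 each). None of these values was called, and the cause of the turns under the other settings was not tested. With 1 library left out, log2 fold changes ran from -0.07 to 0.10 for Gata4, -0.15 to 0.05 for Gata6, -0.13 to 0.08 for Pdx1, -0.44 to -0.10 for Onecut2, 0.36 to 0.51 for Cdx1, -0.01 to 0.14 for Cdx2, 0.14 to 0.29 for Hnf4a and -0.10 to 0.24 for Hnf4g. The count of called loci was 28, and 566 with DESeq2, 553 with no low-count filter, 17 with limma-voom and 5 to 136 with 1 library left out (136 when CF library 0 was omitted, 77 for CF library 2, 5 for WT libraries 1 and 2 each, and 6 for WT library 3). The count over the gene lists was 0, and 5 with DESeq2, 6 with no low-count filter, 1 (Cybrd1) with scaling by epithelium markers and 0 to 2 with 1 library left out. As the table's numbers are not tied to the titles, the replicate block is not known to be a pairing. Deviations of same-numbered libraries had r from -0.11 to 0.16, and 2 CF libraries were closest to the WT library of their own number. With the replicate block 11 loci were called and Hnf4g had a log2 fold change of 0.00. With 4 libraries a group, changes under 1.5-fold would mostly be missed.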
